A study of Mus musculus with 13 samples.

Results

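Clusters of cells carrying an active Oct4-GFP reporter, picked from embryonic fibroblast cultures under chemical reprogramming, were compared with the untreated mouse embryonic fibroblasts (MEF) such cultures start from. The comparison used 3 of the 13 RNA-sequencing libraries, which were the 1 library of GFP-positive clusters and MEF replicates 1 and 2, and all 15176 genes of the expression table that have a symbol of their own. A gene was kept if the higher of the clusters value and the MEF mean reached 5 RPKM (reads per kilobase of gene and per 1000000 mapped reads) and the clusters value lay outside the MEF range. It was called higher or lower if the difference in log2(RPKM + 1) between the clusters and the mean of the 2 MEF values was also at least 1 in size, which is a 2-fold difference on that scale. With 1 library of clusters there is no spread on that side and no test, so every value below describes these libraries.

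The series follows chemical reprogramming of mouse fibroblasts and holds fibroblasts, reprogramming intermediates and other cell types. The clusters were GFP-positive cells of strain C57xICR grown in the compound mix labelled VC6TF with Z. The 2 libraries of Oct4-GFP negative cells, which were also picked, came from C57xICR cultures labelled VC6TF without Z. The MEF were C57xICR embryo fibroblasts with no treatment, and the labels give embryo as the stage and fibroblast as the cell type of all 3 groups. In the published protocol of this kind the mix holds valproic acid, a GSK3 inhibitor, a TGF-beta receptor inhibitor, tranylcypromine and forskolin, and Z is DZNep, an inhibitor of S-adenosylhomocysteine hydrolase that lowers histone methylation. The compounds, the culture and the picking all differ between the clusters and the MEF, so their parts in a difference cannot be told apart. The labels give neither the number of clusters pooled nor whether the MEF and GFP-negative libraries are separate cultures.

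Fibroblasts secrete collagens and other matrix proteins and, in culture on plastic, often build contractile actin fibres under the control of TGF-beta and of serum response factor (SRF). Oct4, encoded by Pou5f1, is a core factor of pluripotent cells, and a GFP reporter under its control is used to pick cells on the way to pluripotency. In chemical reprogramming of mouse fibroblasts, an intermediate with genes of extraembryonic endoderm such as Sall4, Gata4 and Gata6 has been described before pluripotency is reached.

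The depth estimated from the steps of low RPKM values was 8.92 M reads (M, 1000000) for the clusters, 11.1 and 10.3 M for GFP-negative cells, and 11.9 and 17.8 M for MEF replicates 1 and 2. The clusters had 2302 genes at 0 (15.2%), GFP-negative cells 2430 and 1644, and the MEF 1707 and 1133. Among genes averaging 5 RPKM or more in a pair of libraries, 52.7% and 52.0% differed by 1 or more between the clusters and MEF replicates 1 and 2, against 6.85% (125 of 1824 genes) between the 2 MEF libraries. The GFP-negative libraries were far less alike, with 39.4% of such genes apart. MEF replicate 3, from another set of libraries in which no gene is at 0, differed from replicates 1 and 2 at 41.7% and 41.8% of genes and was used as an alternative. The deposited RPKM divide by the whole span of a gene, introns included, so that long genes have low values and may miss 5 RPKM.

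Of the 15176 genes, 1258 (8.29%) were kept as higher and 1165 (7.68%) as lower in the clusters, and 157 of the 2580 genes at 5 RPKM or more lay within the MEF range. The calls numbered 803 higher (5.29% of all genes) and 743 lower (4.9%), 1546 together (10.2%), and the median difference over all genes was −0.05. Higher calls made up 51.9% of calls, and 75.5% under median-of-ratios scaling, which lifts the clusters by 0.68 on the log2 scale relative to the MEF. A difference of 3 or more on the log2 scale was reached by 107 genes that were higher and 81 that were lower. MEF replicate 3 also lay below the clusters for 754 of the genes called higher (93.9%) and above them for 715 of those called lower (96.2%). At the threshold, Porcn (5.006 RPKM) and Sdc3 (5.008 RPKM) were just inside and Man1b1 (4.999 RPKM) and Fbn1 (4.997 RPKM) just outside, while differences of 1.0 for Arfgap1 and −1.0 for Ddb1 were just inside and 0.9999 for 1700123O20Rik and −0.997 for Rraga just outside.

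**Figure D1:**
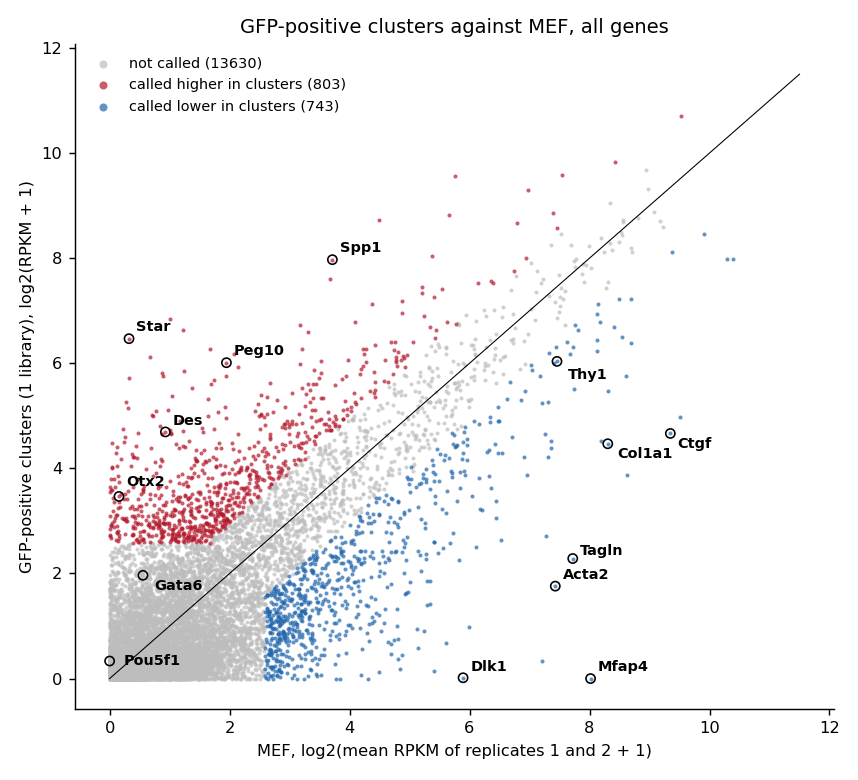
Level of every gene in the clusters (vertical axis, 1 library) against MEF (horizontal axis, mean of replicates 1 and 2), both as log2(RPKM + 1), with the line of equal level. The 803 genes called higher lie above the line and include Star, Peg10, Des and Otx2, the 743 called lower include Mfap4, Dlk1, Acta2, Tagln, Ctgf and Col1a1, and Pou5f1 and Gata6 are among the genes not called.

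The GFP label was checked first on its own gene. Pou5f1 had 11 reads in the clusters (0.260 RPKM, 95% Poisson interval 5.49 to 19.7 reads), 10 and 21 reads in GFP-negative cells, and 0 reads in either MEF library. The clusters and GFP-negative cells were alike in this, and both lay above MEF replicates 1 and 2. MEF replicate 3 had 0.154 RPKM of Pou5f1, against 0.191 and 0.429 in GFP-negative cells. The GFP transcript was not analysed here. Nanog, another core pluripotency factor, had 9 reads in the clusters, 10 and 9 in GFP-negative cells, and 5 and 6 in MEF. Sox2, their partner, was at 0.365 RPKM in the clusters, within the range of the MEF (0.240 and 2.09 RPKM). Sall4, a zinc finger factor of pluripotent cells, had 3 reads in the clusters (0.017 RPKM), 2 and 6 in GFP-negative cells, and 0 in either MEF library, with 0.0106 RPKM in MEF replicate 3.

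Of 30 measured genes on the pluripotency list, 2 passed 5 RPKM, of which 1 was called higher and 1 lower, and 7 of the 30 were at 0 in the clusters. Klf2, a Krüppel-like factor of naive pluripotency that fibroblasts and endothelial cells also express, was at 25.5 RPKM in the clusters, 0.0344 and 0.480 in GFP-negative cells, and 9.93 and 12.4 in MEF (log2 difference 1.13). MEF replicate 3 had 22.6 RPKM of Klf2, and with it in the MEF mean the difference was 0.81, below the call. It was 0.984 without MEF replicate 1. Klf4, a related factor with many roles in other tissues, was at 7.04 RPKM in the clusters, 22.9 and 2.94 in GFP-negative cells, and 20.6 and 14.2 in MEF (−1.17). That call was lost under median-of-ratios scaling (−0.56) and without MEF replicate 1 (−0.919). The median difference over the list was 0.02.

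Among genes of extraembryonic endoderm, Gata6, a zinc finger factor of primitive endoderm, was at 2.90 RPKM in the clusters, 0.243 and 1.02 in GFP-negative cells, and 0.774 and 0.167 in MEF. Gata4, its close relative, was at 1.14 RPKM in the clusters, 0.00124 and 0.0426 in GFP-negative cells, and 0.00348 and 0.00077 in MEF. Both lay above the other 4 libraries but under 5 RPKM, so neither was kept. Foxa2, another transcription factor of endoderm, was instead highest in GFP-negative cells, at 2.08 and 5.25 RPKM. It was at 0.0538 RPKM in the clusters and at 0 and 0.0135 in MEF, and was not called. Counted as reads per 1000000 (RPM) without the division by gene span, Gata6 had 97.5 in the clusters, 8.15 and 34.3 in GFP-negative cells, and 26 and 5.59 in MEF. On the same scale Gata4 had 83.0 in the clusters, 0.0903 and 3.10 in GFP-negative cells, and 0.253 and 0.0563 in MEF. With a minimum of 20 RPM, an alternative chosen after the values were seen, both were among the 14.1% of genes called higher, by 2.88 and 6.19 on the log2(RPM + 1) scale.

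Other genes of extraembryonic endoderm went both ways. Of 23 measured, 8 passed 5 RPKM, 2 were called higher and 5 lower, and under median-of-ratios scaling this became 3 higher and 2 lower. The shares over all genes were 5.29% higher and 4.9% lower. Thbd, the thrombin receptor thrombomodulin that parietal endoderm carries, was at 123 RPKM in the clusters, 57.4 and 138 in GFP-negative cells, and 27.4 and 29.1 in MEF (2.08). Pdgfra, a growth factor receptor of primitive endoderm and of fibroblasts, was at 21.6 RPKM in the clusters, 11.0 and 13.7 in GFP-negative cells, and 6.89 and 7.21 in MEF (1.49). Apoe, a lipid carrier, was low in the clusters alone of these libraries, at 1.5 RPKM, against 19.7 and 26.6 in GFP-negative cells and 22.6 and 23.7 in MEF (−3.27). Serpinh1, a collagen chaperone, was at 17.5 RPKM in the clusters, 27.4 and 35.7 in GFP-negative cells, and 171 and 143 in MEF (−3.09). The list's median difference was 0.00.

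The gene with the largest positive difference was Star, which encodes the protein that carries cholesterol into mitochondria for steroid synthesis. It was at 87.5 RPKM in the clusters, 12.5 and 12.7 in GFP-negative cells, and 0.0493 and 0.453 in MEF (log2 difference 6.16). The groups did not overlap, and the GFP-negative cells lay between the other groups. Inhbb, the inhibin beta B subunit, was at 32.7 RPKM in the clusters, 72.7 and 85.5 in GFP-negative cells, and 5.33 and 5.81 in MEF (2.36), so that here the GFP-negative cells were highest. Tspo, a mitochondrial outer membrane protein that binds cholesterol, was at 5.50 RPKM in the clusters, 0.0765 and 0.975 in GFP-negative cells, and 1.63 and 1.26 in MEF (1.42), a call lost with MEF replicate 3 added (0.984). These 3 were the called genes among 19 measured steroidogenesis genes, of which 6 passed 5 RPKM and none was called lower. The median difference of that list was 0.17, and 6 were called higher under median-of-ratios scaling. Among all genes 5.29% were called higher.

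Several of the next largest differences belonged to membrane and secreted proteins. Procr, the protein C receptor, was at 53 RPKM in the clusters, 2.47 and 24.3 in GFP-negative cells, and 0.910 and 0.815 in MEF (4.86). Aqp5, a water channel of glands, was at 34.3 RPKM in the clusters, 12.9 and 15.1 in GFP-negative cells, and 0.254 and 0.212 in MEF (4.84). Gjb5, a connexin of gap junctions, was at 37.6 RPKM in the clusters, 0.991 and 0.0574 in GFP-negative cells, and 0.05 and 0.367 in MEF (5.01). Procr and Aqp5 were thus raised in GFP-negative cells too, while Gjb5 in those cells overlapped the MEF. Clu, the secreted chaperone clusterin, was at 75.9 RPKM in the clusters, 6.61 and 12.1 in GFP-negative cells, and 1.70 and 2.68 in MEF (4.61). Ptgs2, the inducible cyclooxygenase of prostaglandin synthesis, was at 56.4 RPKM in the clusters, 110 and 89.1 in GFP-negative cells, and 0.877 and 1.84 in MEF (4.64). Of these, Ptgs2 alone was higher in both GFP-negative libraries than in the clusters.

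Further large differences lay in genes of the cell interior. Rpp25, a subunit of the RNA processing enzyme RNase P, was at 68.9 RPKM in the clusters, 1.68 and 7.12 in GFP-negative cells, and 0.313 and 0.879 in MEF (5.47). Bex2, of the brain-expressed X-linked family, was at 51.6 RPKM in the clusters, 0.054 and 9.61 in GFP-negative cells, and 0.101 and 0.404 in MEF (5.40). Tubb4, a beta-tubulin, was at 25.8 RPKM in the clusters, 20.3 and 18.4 in GFP-negative cells, and 0.164 and 0.182 in MEF (4.51). The 2 GFP-negative libraries lay on either side of the MEF for Bex2 and close to the clusters for Tubb4. Tbce, a tubulin-folding cofactor, was at 97.9 RPKM in the clusters, 21.1 and 18.1 in GFP-negative cells, and 1.33 and 1.35 in MEF (5.40). Abi1, an adaptor of actin assembly, was at 55.6 RPKM in the clusters, 15.9 and 13 in GFP-negative cells, and 0.668 and 0.999 in MEF (4.95). Tbce overlaps B3galnt2 (0.942) and Abi1 overlaps Pdss1 (−0.31) on the opposite strand, and since the use of strand in counting is not given, their reads cannot be told apart. Pigyl had 114 RPKM in the clusters, 0.836 and 34.8 in GFP-negative cells, and 0.502 and 1.53 in MEF (5.88).

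Otx2, a homeobox factor of the epiblast and the anterior neural plate, was at 10.0 RPKM in the clusters, 0 in both GFP-negative libraries, and 0.144 and 0.0848 in MEF (3.31). It was the 1 called gene among 10 measured genes of primed and anterior cells, a list with a median of −0.07. None of 18 neural genes was called, and their summed level was 12.4 RPKM in the clusters, 26.9 and 59.5 in GFP-negative cells, and 14.9 and 12.6 in MEF. Peg10, an imprinted gene of retrotransposon origin needed by the placenta, was at 63.5 RPKM in the clusters, 12.1 and 8.0 in GFP-negative cells, and 2.12 and 3.59 in MEF (4.09). It was the 1 imprinted gene called higher. No gene of the trophoblast (10 measured), germline (11), keratinocyte (8) or DNA methylation and TET (8) lists was called, and no member of these 4 lists passed 5 RPKM, though 1 DNA methylation and TET gene was called lower without MEF replicate 2.

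Des, the intermediate filament protein desmin of muscle, was at 24.9 RPKM in the clusters, 0.263 and 2.36 in GFP-negative cells, and 0.623 and 1.19 in MEF (3.78). The clusters thus lay above all 4 other libraries, while GFP-negative cells spanned the MEF range. Des was the 1 called gene of 19 skeletal and cardiac muscle genes, and 10 of the 19, with Myod1, Actc1 and Tnnt2 among them, were at 0 in the clusters. Kdr, the main VEGF receptor of endothelium, was at 24.6 RPKM in the clusters, 0.469 and 0.250 in GFP-negative cells, and 0.922 and 1.15 in MEF (3.65). It was the 1 called gene of 15 endothelial genes, whose sum was 30.2 RPKM in the clusters, 0.841 and 3.88 in GFP-negative cells, and 5.92 and 6.18 in MEF. Kdr alone made up 24.6 of the 30.2 RPKM in the clusters, so the sum there mostly repeats Kdr. The endothelial genes Cldn5, Sox18, Vwf, Robo4 and Tal1 were at 0 in the clusters, and 2 endothelial genes were called higher under median-of-ratios scaling. As in any bulk sample, a few cells with much of an RNA and many cells with little of it cannot be told apart.

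Epithelial genes were high in a few members. Krt18, a keratin of simple epithelia, was at 11.6 RPKM in the clusters, 3.13 and 4.24 in GFP-negative cells, and 0.664 and 0.310 in MEF (3.10). Krt19, another simple epithelial keratin, was at 9.73 RPKM in the clusters, 0.115 and 3.71 in GFP-negative cells, and 0.161 and 0.201 in MEF (3.18). Both were above the other 4 libraries, and they were the 2 called genes of 21 measured, 7 of which were at 0 in the clusters, while 4 were called higher under median-of-ratios scaling. Cldn4, a claudin on the list, was at 3.97 RPKM in the clusters, 29.6 and 0 in GFP-negative cells, and 0.0933 and 0.0623 in MEF. The list summed to 35.0 RPKM in the clusters, 34.1 and 10.8 in GFP-negative cells, and 1.70 and 1.07 in MEF. Cdh1, the adhesion protein E-cadherin, was at 1.71 RPKM in the clusters, 0.116 and 0.353 in GFP-negative cells, and 0 and 0.00168 in MEF, too low to be kept. In RPM it had 115 in the clusters, 7.77 and 23.6 in GFP-negative cells, and 0 and 0.113 in MEF, and was called higher there by 6.78. On that scale 4 of the 21 were called higher, where 14.1% of all genes were.

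**Figure D2:**
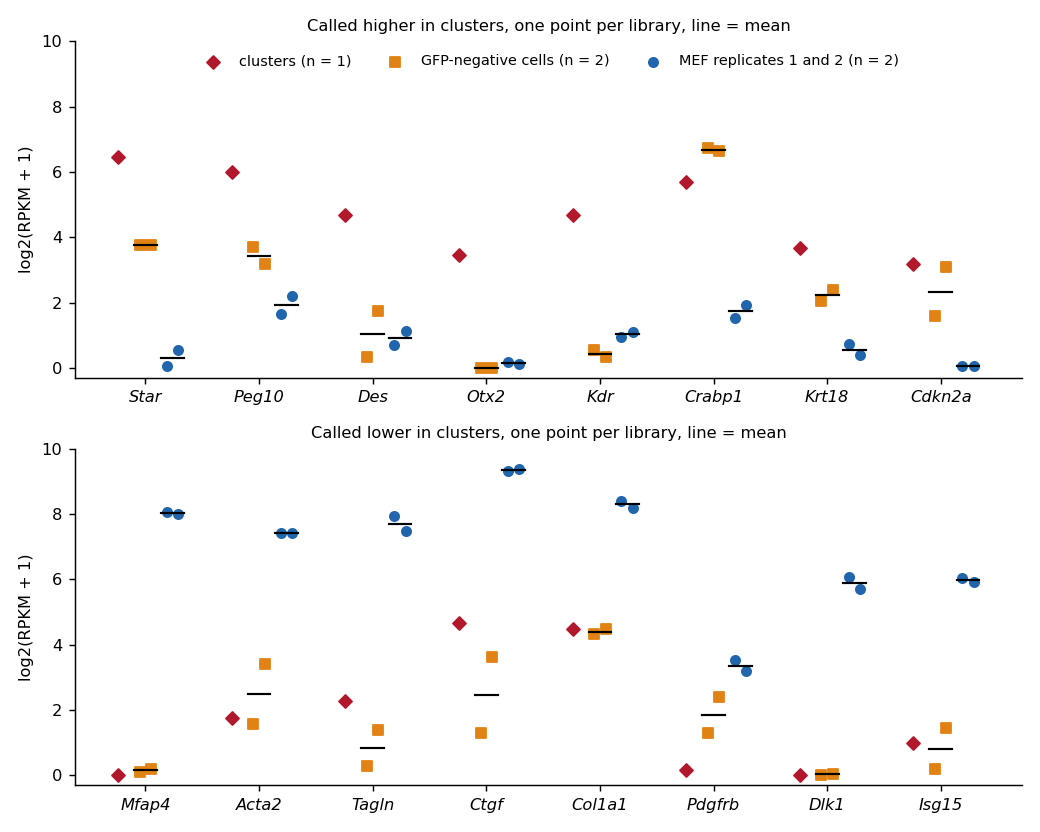
Level of 16 named genes in each library as log2(RPKM + 1) on the vertical axis, with diamonds for the clusters (n = 1), squares for GFP-negative cells (n = 2), circles for MEF replicates 1 and 2 (n = 2) and lines at group means. Des, Otx2 and Kdr are high in the clusters alone, Crabp1 is higher still in GFP-negative cells, and Mfap4, Dlk1 and Isg15 are near the bottom of the axis in the clusters and GFP-negative cells.

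The contractile genes of smooth muscle and myofibroblasts were low in the clusters. Of 16 measured, 10 passed 5 RPKM, none was called higher and 9 were called lower, all 9 also in GFP-negative cells, and the median difference was −1.65. Over all genes 4.9% were called lower, and 43.6% of those were also lower in GFP-negative cells by the rule given below. These are the shares to set beside the lists that follow. Acta2, smooth muscle actin, was at 2.38 RPKM in the clusters, 1.97 and 9.68 in GFP-negative cells, and 171 in each MEF library (−5.67). Tagln, the actin-binding transgelin, was at 3.87 RPKM in the clusters, 0.225 and 1.63 in GFP-negative cells, and 241 and 178 in MEF (−5.42). It overlaps Pcsk7 on the opposite strand, whose difference was 1.98. Cnn2, the actin-binding calponin, was at 4.65 RPKM in the clusters, 1.41 and 19.4 in GFP-negative cells, and 75.9 and 60.7 in MEF (−3.61). Tpm1, a tropomyosin, was at 4.41 RPKM in the clusters, 9.68 and 9.97 in GFP-negative cells, and 35.5 and 32.9 in MEF (−2.70). In none of these genes did the clusters or the GFP-negative cells reach the MEF. Under median-of-ratios scaling 7 of the 16 were called lower and 1 higher. MEF replicate 3 lay nearer the clusters, at 65.2 RPKM for Acta2 and 57.3 for Tagln. The list summed to 71.3 RPKM in the clusters, 698 and 621 in MEF replicates 1 and 2, and 305.9 in replicate 3. With replicate 3 added 9 were still called lower.

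Srf itself, the factor that binds CArG boxes in promoters of contractile genes, was at 2.00 RPKM in the clusters, 1.3 and 4.39 in GFP-negative cells, and 9.33 and 6.72 in MEF (−1.58). The promoters of Srf and of 3 further contractile genes called lower, Vcl (the focal adhesion protein vinculin, −2.66), Cnn2 and Myl9 (a myosin light chain, −1.64), each hold a CArG box in the 300 bases around the start site. They are shown because they are the 4 of 12 contractile genes with a promoter in the RefSeq table (GRCm38.p6) in which a search of both strands found the box. Only the strict form was searched for, with nothing but A or T between CC and GG, as in the capitals below. No box of this form was found in the 300 bases of Acta2, Tpm1, Tpm2 and Flna, which were also called lower, and Tagln has no promoter in that table. Boxes with another letter inside, or outside these bases, would be missed, so these genes are not shown to lack one. The sequences, 5′ to 3′ on the gene's strand with the box in capitals, are those of Srf at chr17:46556113-46556412 (minus strand), Vcl at chr14:20929148-20929447 (plus strand), Cnn2 at chr10:79988350-79988649 (plus strand) and Myl9 at chr2:156775214-156775513 (plus strand).
Srf: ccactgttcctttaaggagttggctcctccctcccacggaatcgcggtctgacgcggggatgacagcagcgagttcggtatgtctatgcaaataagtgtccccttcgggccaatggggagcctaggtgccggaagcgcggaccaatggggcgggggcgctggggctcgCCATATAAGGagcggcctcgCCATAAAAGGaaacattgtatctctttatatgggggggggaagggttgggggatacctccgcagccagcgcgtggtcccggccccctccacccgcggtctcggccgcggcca
Vcl: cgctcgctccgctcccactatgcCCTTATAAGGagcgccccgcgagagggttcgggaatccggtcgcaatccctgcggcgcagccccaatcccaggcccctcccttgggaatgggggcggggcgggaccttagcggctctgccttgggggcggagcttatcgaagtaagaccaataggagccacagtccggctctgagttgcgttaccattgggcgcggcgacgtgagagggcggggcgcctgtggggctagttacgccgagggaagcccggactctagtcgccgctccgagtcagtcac
Cnn2: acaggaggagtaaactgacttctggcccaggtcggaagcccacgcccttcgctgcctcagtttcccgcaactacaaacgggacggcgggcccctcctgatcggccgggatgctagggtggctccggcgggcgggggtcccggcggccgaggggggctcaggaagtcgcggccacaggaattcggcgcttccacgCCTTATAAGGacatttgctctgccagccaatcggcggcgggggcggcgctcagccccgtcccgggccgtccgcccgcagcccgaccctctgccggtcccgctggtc
Myl9: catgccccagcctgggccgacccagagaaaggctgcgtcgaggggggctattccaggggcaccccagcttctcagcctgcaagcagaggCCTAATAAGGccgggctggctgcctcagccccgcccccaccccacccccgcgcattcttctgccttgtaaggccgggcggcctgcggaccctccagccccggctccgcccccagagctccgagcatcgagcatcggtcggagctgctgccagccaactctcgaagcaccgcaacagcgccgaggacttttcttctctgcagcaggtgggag
Srf has 2 boxes, at −82 to −73 and −62 to −53 from the start site, and Vcl has 1 at −227 to −218, Cnn2 1 at −56 to −47 and Myl9 1 at −161 to −152. The box was found in 1.63% of all 32851 promoters of the table. The motif was chosen after the values were seen, and a match describes the letters and is not a measurement of binding.

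Targets of TGF-beta had a list median of −2.27, with 8 of 15 measured genes called lower, all 8 also in GFP-negative cells, and 2 called higher. Ctgf, the connective tissue growth factor, was at 24.4 RPKM in the clusters, 1.42 and 11.2 in GFP-negative cells, and 641 and 659 in MEF (−4.68), while MEF replicate 3 had 52.5 RPKM. Thbs1, the matrix protein thrombospondin, was at 30.5 RPKM in the clusters, 38.7 and 50.4 in GFP-negative cells, and 759 and 703 in MEF (−4.54). Lox, the enzyme that crosslinks collagen, was at 13.7 RPKM in the clusters, 27.0 and 12.5 in GFP-negative cells, and 382 and 410 in MEF (−4.75). All 3 were more than an order of magnitude apart from MEF replicates 1 and 2. MEF replicate 3 lay nearer the clusters, at 122 RPKM for Thbs1 and 142 for Lox. The list summed to 302.5 RPKM in the clusters, 2677 in each of MEF replicates 1 and 2, and 720 in replicate 3. Postn, the matrix protein periostin, was at 0.101 RPKM in the clusters, 5.19 and 2.98 in GFP-negative cells, and 37.4 and 45.3 in MEF (−5.26), with 55.3 RPKM in MEF replicate 3. The 2 genes called higher were Tgfbi (2.05), a secreted adhesion protein, and Bhlhe40 (1.86), a transcriptional repressor, and neither was shared with GFP-negative cells.

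Fibroblast genes, markers of the cell type on the labels, were low in part. Of 22 measured, 17 passed 5 RPKM and 13 were called lower, with a median of −1.46, and under median-of-ratios scaling 8 were. Col1a1, a chain of type I collagen, was at 21.1 RPKM in the clusters, 19 and 21.0 in GFP-negative cells, and 338 and 292 in MEF (−3.83), and at 1824 RPKM in MEF replicate 3. Col1a2, its partner chain, was at 5.22 RPKM in the clusters, 2.48 and 6.04 in GFP-negative cells, and 95.4 and 86.9 in MEF (−3.89). For both collagen genes the clusters lay within or next to the GFP-negative range. Pdgfrb, a growth factor receptor of mesenchymal cells, was at 0.124 RPKM in the clusters, 1.45 and 4.23 in GFP-negative cells, and 10.4 and 8.10 in MEF (−3.18). Vim, the filament protein vimentin, was at 21.9 RPKM in the clusters, 22.8 and 39.0 in GFP-negative cells, and 169 and 156 in MEF (−2.83). Thy1, a surface protein used to sort fibroblasts, was at 64.6 RPKM in the clusters, 106 and 127 in GFP-negative cells, and 186 and 163 in MEF (−1.42). The Thy1 call was lost under median-of-ratios scaling (−0.75) and with MEF replicate 3, at 56.8 RPKM, added (−0.885). Twist1, a mesenchymal transcription factor, was the 1 member called higher, with 64.5 RPKM in the clusters, 59.6 and 82.0 in GFP-negative cells, and 33.4 and 19.5 in MEF (1.3), a call lost without MEF replicate 2.

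The 2 largest negative differences among the named genes were those of Mfap4 and Prss23. Mfap4, a microfibril protein, was listed at 0 in the clusters, at 0.0781 and 0.140 RPKM in GFP-negative cells, and at 263 and 253 RPKM in MEF. With 3 reads assumed as a bound for a count of 0, it was at least 2660-fold lower in the clusters than the MEF mean. The fold is smaller at 3.69 reads, where the 95% Poisson interval ends. Mfap4 overlaps Mapk7 (1.74) on the opposite strand. Prss23, a secreted protease, was at 0.263 RPKM in the clusters, 3.34 and 5.29 in GFP-negative cells, and 148 and 146 in MEF (−6.88). In both genes the GFP-negative cells were low as well. Mgp, a matrix inhibitor of calcification, was at 5.56 RPKM in the clusters, 16.5 and 2.04 in GFP-negative cells, and 147 and 160 in MEF (−4.56). Nov, a matrix protein of the same family as Ctgf, was at 0.134 RPKM in the clusters, 9.52 and 7.15 in GFP-negative cells, and 32.5 and 22.6 in MEF (−4.63). F2r, the thrombin receptor, was at 0.599 RPKM in the clusters, 4.26 and 5.56 in GFP-negative cells, and 48.9 and 46.9 in MEF (−4.93). For Nov and F2r the clusters lay below both GFP-negative libraries, which lay below MEF replicates 1 and 2. MEF replicate 3 had 32.3 RPKM of Nov and 7.30 of F2r.

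Matrix proteases and their inhibitors went both ways. Of 19 measured, 3 were called higher and 5 lower with a median of −0.31, and under median-of-ratios scaling 5 were higher and 1 lower. With MEF replicate 3 added 3 were called in each direction. Ctsl, a lysosomal protease, was at 264 RPKM in the clusters, 383 and 277 in GFP-negative cells, and 35.9 and 44.9 in MEF (2.69). Plau, the urokinase plasminogen activator, was at 30.4 RPKM in the clusters, 2.60 and 11.4 in GFP-negative cells, and 3.37 and 6.53 in MEF (2.45). Ctsl was thus high in GFP-negative cells too, while Plau there overlapped the MEF. Serpinf1, a secreted inhibitor of vessel growth, was at 1.49 RPKM in the clusters, 19.9 and 15.1 in GFP-negative cells, and 25.6 and 27.6 in MEF (−3.47).

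Imprinted genes other than Peg10 were called in one direction. Of 23 measured, 6 were called lower, all 6 also in GFP-negative cells, with a list median of −0.36. Under median-of-ratios scaling 4 were called lower and 2 higher, and with MEF replicate 3 added 10 were called lower. Dlk1, a paternally expressed Notch-like ligand of fetal tissue, had 1 read in the clusters (0.0107 RPKM), 0.00861 and 0.0277 RPKM in GFP-negative cells, and 65.6 and 51.2 RPKM in MEF. MEF replicate 3 had 409 RPKM of Dlk1. H19, a maternally expressed noncoding RNA, was at 253 RPKM in the clusters, 89.9 and 49.2 in GFP-negative cells, and 1349 and 1343 in MEF (−2.41). Igf2, the growth factor gene beside H19, was at 110 RPKM in the clusters, 68.7 and 60.1 in GFP-negative cells, and 286 and 291 in MEF (−1.39). For H19 and Igf2 the clusters lay between the GFP-negative cells and the MEF. Grb10, an adaptor that restrains growth, was at 0.248 RPKM in the clusters, 0.159 and 1.78 in GFP-negative cells, and 6.17 and 6.54 in MEF (−2.56).

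Among interferon and antigen presentation genes, 6 of 19 measured were called lower, all 6 also in GFP-negative cells, and 2 higher, with a median of −1.23. Over all genes the shares were 4.9% lower, 43.6% of these also in GFP-negative cells, and 5.29% higher. Isg15, a ubiquitin-like protein induced by interferon, was at 0.965 RPKM in the clusters, 0.130 and 1.74 in GFP-negative cells, and 65.3 and 59.3 in MEF (−5.01). Irf7, a factor that amplifies interferon production, was at 0.0594 RPKM in the clusters, 0.0478 and 0.872 in GFP-negative cells, and 11.8 and 7.82 in MEF (−3.33). Ifit1 and Bst2, antiviral effectors, differed by −3.0 and −2.95. In each of these 4 genes the clusters and both GFP-negative libraries lay below both MEF libraries. The 2 genes called higher were Irf1 (1.82), an interferon-induced factor, and Psmb8 (1.01), a subunit of the immunoproteasome, both of which lay below the MEF in GFP-negative cells. Without MEF replicate 2 the Psmb8 call was lost (0.751).

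Secreted signals were mixed, with 2 of 11 measured chemokines and cytokines called higher and 3 lower and a median of −0.35, or 4 higher and 3 lower with a median of 0.30 under median-of-ratios scaling. Spp1, the secreted phosphoprotein osteopontin, was at 249.9 RPKM in the clusters, 455 and 389 in GFP-negative cells, and 10.8 and 13.5 in MEF (4.26). Cxcl12, a chemokine of stromal cells, was at 0.0961 RPKM in the clusters, 0.0563 and 2.94 in GFP-negative cells, and 20.4 and 22.3 in MEF (−4.35). Csf1, the macrophage growth factor, was at 4.99 RPKM in the clusters, 20.3 and 18.7 in GFP-negative cells, and 51.2 and 49.2 in MEF (−3.10). Ccl7, a chemokine for monocytes, was at 7.92 RPKM in the clusters, 41.7 and 38.7 in GFP-negative cells, and 61.9 and 33.8 in MEF (−2.39), while MEF replicate 3 had 8.2 RPKM. In Csf1 the GFP-negative cells lay between the clusters and MEF replicates 1 and 2, while MEF replicate 3 had 9.69 RPKM. In Ccl7 they lay within the range of MEF replicates 1 and 2. Flt3l, a growth factor of blood progenitors, was high in the clusters alone, at 24.5 RPKM, against 0.293 and 0.0738 in GFP-negative cells and 0.386 and 0.376 in MEF (4.21). Of 7 measured macrophage and blood genes, Cd14, the coreceptor for bacterial lipopolysaccharide, was at 45.5 RPKM in the clusters, 69.3 and 52.3 in GFP-negative cells, and 1.32 and 1.86 in MEF (4.17). Lyz2, the lysozyme of macrophages, was listed at 0 in the clusters, at 0 and 0.0194 RPKM in GFP-negative cells, and at 15 and 22.6 RPKM in MEF. With the same assumed bound of 3 reads the clusters were at least 279-fold lower. These 2 were the called members of that list, and without MEF replicate 1 or with replicate 3 added 2 were called lower.

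Proliferation genes were mostly low, with 7 of 24 measured called lower, none higher and a median of −1.27, and with 5 lower and 2 higher under median-of-ratios scaling. Not all members fell, since Cdk1 (0.58), Ccnb1 (0.32) and Ccnb2 (0.61) lay the other way without a call. Pcna, the sliding clamp of DNA replication, was at 4.37 RPKM in the clusters, 12 and 15 in GFP-negative cells, and 27.6 and 25.3 in MEF (−2.35). Ccna2, cyclin A, was at 1.72 RPKM in the clusters, 3.93 and 1.85 in GFP-negative cells, and 12 and 12.6 in MEF (−2.29), and overlaps Exosc9 (−2.0) on the opposite strand. Mcm2 and Mcm3, subunits of the replicative helicase, differed by −2.49 and −2.51, at 0.168 and 0.350 RPKM in the clusters. The clusters lay below both GFP-negative libraries for all 4 of these genes. The senescence and p53 list went the other way, with 8 of 16 measured called higher, 7 of them also in GFP-negative cells, 1 lower and a median of 0.53. Over all genes 5.29% were called higher, and 26.3% of those were also higher in GFP-negative cells by the same rule. Cdkn2a, which encodes the cell cycle inhibitors of the Ink4a/Arf locus, was at 8.13 RPKM in the clusters, 1.99 and 7.55 in GFP-negative cells, and 0.0334 and 0.0419 in MEF (3.14). Cdkn1a, the p53 target that blocks cyclin-dependent kinases, was at 26.5 RPKM in the clusters, 59.5 and 49.9 in GFP-negative cells, and 7.58 and 11.3 in MEF (1.42). Mdm2, the p53 ubiquitin ligase, was at 7.99 RPKM in the clusters, 11.6 and 5.52 in GFP-negative cells, and 1.68 and 2.81 in MEF (1.49). Ei24, a p53-induced gene, was at 8.11 RPKM in the clusters, 10.3 and 7.16 in GFP-negative cells, and 2.51 and 3.21 in MEF (1.25). For Mdm2 and Ei24 the clusters lay within the GFP-negative range. The member called lower was Cdkn2b, another Ink4 inhibitor (−1.15), a call lost under median-of-ratios scaling and without MEF replicate 1. It was also lost with MEF replicate 3 added, which at 2.45 RPKM lay below the clusters at 3.12 RPKM.

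Glycolysis genes were called higher at 8 of 17 measured, none lower, with a median of 1.11. The share called higher over all genes was 5.29%. Of the 17, however, 10 passed 5 RPKM, against 2580 of all 15176 genes, and only such genes can be called. Under median-of-ratios scaling 11 were called higher, and with MEF replicate 3 added 5 were. Tpi1, triosephosphate isomerase, was at 153 RPKM in the clusters, 60.1 and 108 in GFP-negative cells, and 48.7 and 34.6 in MEF (1.87). Pkm2, pyruvate kinase, was at 72.9 RPKM in the clusters, 35.2 and 71.7 in GFP-negative cells, and 28.7 and 25.1 in MEF (1.41). Slc16a3, the lactate exporter, was at 5.75 RPKM in the clusters, 13.3 and 8.10 in GFP-negative cells, and 0.191 and 0.200 in MEF (2.50). The clusters were highest of the 3 groups for Tpi1 and Pkm2 but not for Slc16a3. Pgk1, phosphoglycerate kinase, differed by 1.5.

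Of 16 measured genes of retinoid and lipid handling, 5 were called higher and 1 lower, with a median of 0.08. Of these 16, 8 passed 5 RPKM, and among all genes 5.29% were called higher and 4.9% lower. Crabp1, a cellular retinoic acid-binding protein, was at 50.6 RPKM in the clusters, 105 and 99.0 in GFP-negative cells, and 1.90 and 2.82 in MEF (3.95). Crabp2, its relative, was at 21.2 RPKM in the clusters, 1.82 and 9.84 in GFP-negative cells, and 0.483 and 1.82 in MEF (3.44). Rbp4, the retinol carrier of serum, was at 8.49 RPKM in the clusters, 0.0727 and 3.84 in GFP-negative cells, and 0.155 and 0.0388 in MEF (3.12). Crabp1 alone of the 3 was higher in GFP-negative cells than in the clusters. Cebpa, a transcription factor of fat and liver, was at 0.0426 RPKM in the clusters, 0.103 and 9.89 in GFP-negative cells, and 8.80 and 6.07 in MEF (−3.0), and so differed more between the 2 GFP-negative libraries than between the clusters and the MEF.

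Genes known to respond to cAMP and to Wnt signals were mixed. Of 16 measured cAMP response genes, 4 were called lower and 1 higher, with a median of −0.05. Under median-of-ratios scaling 3 were called in each direction, and without MEF replicate 2 a further gene was called higher. Fos, an immediate early factor, was at 2.62 RPKM in the clusters, 27.0 and 20.4 in GFP-negative cells, and 41.6 and 37.0 in MEF (−3.48). Egr1, another immediate early factor, was at 18.9 RPKM in the clusters, 51.4 and 72.4 in GFP-negative cells, and 84.2 and 70.2 in MEF (−1.97). The clusters lay below the other 4 libraries for both genes, and Fosb, of the Fos family, differed by −2.88. Atf3, a stress-induced factor, was the member called higher, with 5.87 RPKM in the clusters, 1.57 and 3.84 in GFP-negative cells, and 0.588 and 1.10 in MEF (1.91). Of 18 Wnt target genes 1 was called in each direction, and 6 were at 0 in the clusters. Sp5, a direct target of beta-catenin, was at 5.67 RPKM in the clusters, 0.740 and 5.42 in GFP-negative cells, and listed at 0 in both MEF libraries, while Sfrp2, a secreted Wnt modulator, was at 2.61 RPKM in the clusters, 10.5 and 7.99 in GFP-negative cells, and 39.1 and 37.6 in MEF (−3.45).

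Ribosomal protein and stress genes were called in both directions. Of 25 ribosomal protein genes 24 passed 5 RPKM, and 6 were called lower and 1 higher with a median of −0.32, but 3 lower and 5 higher with a median of 0.35 under median-of-ratios scaling, so their direction depends on the scaling. Rplp1, a protein of the ribosomal stalk, was at 20.9 RPKM in the clusters, 20.2 and 87.7 in GFP-negative cells, and 92.0 and 78.2 in MEF (−1.97). Rps24, of the small subunit, was at 5.81 RPKM in the clusters, 47.2 and 16.5 in GFP-negative cells, and 19.4 and 30.5 in MEF (−1.90). Rpl18 (−2.13) and Rps18 (−1.51, or −0.87 under median-of-ratios scaling and then not called) each overlap a gene on the opposite strand. For Rplp1 and Rps24 the 2 GFP-negative libraries were farther apart than the 2 MEF libraries. Ribosomal protein genes have many processed pseudogenes, and how reads that match several copies were counted is not given. Of 15 heat shock and stress genes 4 were called lower and 2 higher, or 2 lower and 3 higher under median-of-ratios scaling. Hspb1, a small heat shock protein, was at 1.02 RPKM in the clusters, 1.48 and 3.94 in GFP-negative cells, and 10.7 and 9.66 in MEF (−2.47). Asns, the asparagine synthetase induced by amino acid stress, was at 0.905 RPKM in the clusters, 4.23 and 1.05 in GFP-negative cells, and 7.20 and 7.69 in MEF (−2.15). Hspb8, of the same family as Hspb1, lay the other way, with 14.8 RPKM in the clusters, 11.2 and 7.87 in GFP-negative cells, and 3.79 and 3.24 in MEF (1.81). Of 21 Hox and patterning genes, Hoxa10, a posterior patterning gene, was called higher with 6.73 RPKM in the clusters, 0.627 and 0.140 in GFP-negative cells, and 0.567 and 0.577 in MEF (2.30), and Hoxd8 lower (−2.27).

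When reads were not divided by gene span and a minimum of 20 RPM was used, more genes were called, 14.1% of the 13671 genes with a span higher and 18.7% lower. On that scale 13 of the 24 proliferation genes were called lower and 2 higher, and 12 of the 19 interferon genes lower and 3 higher. The contractile list had 11 of 16 lower and 1 higher, the imprinted list 10 of 23 lower and 3 higher, and the steroidogenesis list 8 of 19 higher and 1 lower. The extraembryonic endoderm list had 6 higher and 5 lower of 23. This lay above the share over all genes on the higher side (14.1%) and near it on the lower side (18.7%).

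**Figure D3:**
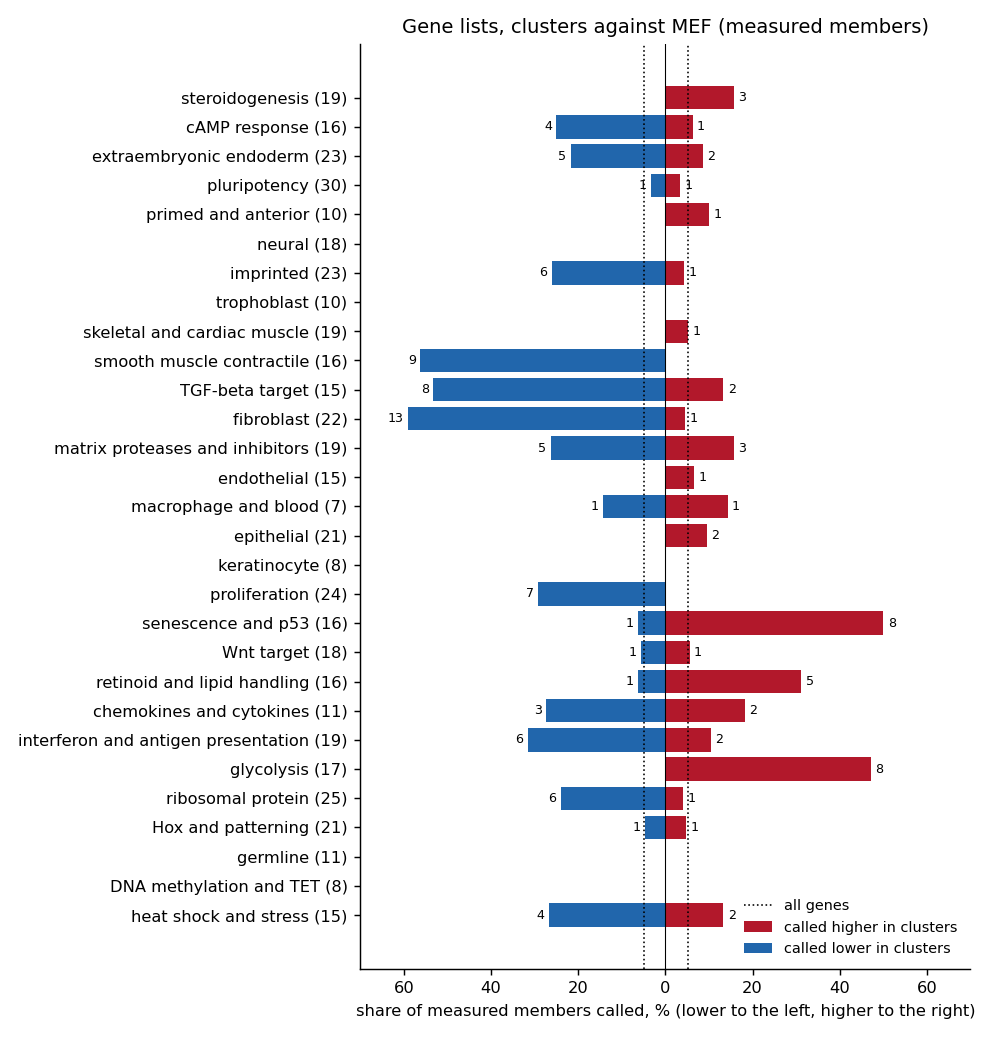
Share of the measured members of each of 29 gene lists that were called lower (bars to the left) or higher (bars to the right) in the clusters against MEF, in percent, with the number called at each bar, the number measured in brackets and dotted lines at the shares over all genes (4.9% lower, 5.29% higher). The fibroblast, smooth muscle contractile and TGF-beta target lists have 13, 9 and 8 members called lower, and the senescence and p53 and the glycolysis lists have 8 each called higher. Only genes at 5 RPKM or more can be called, 2580 of the 15176 genes, but 24 of the 25 ribosomal protein and 17 of the 22 fibroblast genes. The dotted lines are thus low beside lists of abundant genes.

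The calls were then set beside the GFP-negative cells, with a call counted as shared if both GFP-negative libraries lay outside the MEF range on the same side and their mean difference was at least 1. Over all genes, GFP-negative cells met this rule for 691 genes on the higher side (4.55%) and 983 on the lower side (6.48%). Of the 803 genes called higher in the clusters 211 were shared (26.3%), and of the 743 called lower 324 were (43.6%). Both comparisons use the same MEF libraries, so these shares are counts and no measure of likeness. A further 70 calls lay on opposite sides of the MEF, 50 of them higher and 20 lower in the clusters. The clusters lay above both GFP-negative and both MEF libraries for 672 of the 803 genes, and below all 4 for 489 of the 743.

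Among the genes called higher but not shared, Cyp2s1, a cytochrome P450 enzyme of epithelia, was at 21.3 RPKM in the clusters, 0.851 and 0.737 in GFP-negative cells, and 0.0117 and 0.0429 in MEF (4.44). Arl4d, a small GTPase, was at 40.7 RPKM in the clusters, 0.512 and 0.634 in GFP-negative cells, and 0.773 and 1.35 in MEF (4.35). With Gjb5, Bex2, Pigyl and Flt3l these were the 6 largest such differences. In Bex2 and Pigyl the second GFP-negative library alone lay well above the MEF. On the lower side the largest were Gm11189 (−4.43), Gm5633 (−3.94), Gm10145 (−3.90) and Gm10120 (−3.56), predicted genes of which 3 are annotated as processed pseudogenes and whose reads may come from other copies, followed by Fos and Serpinf1.

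**Figure D4:**
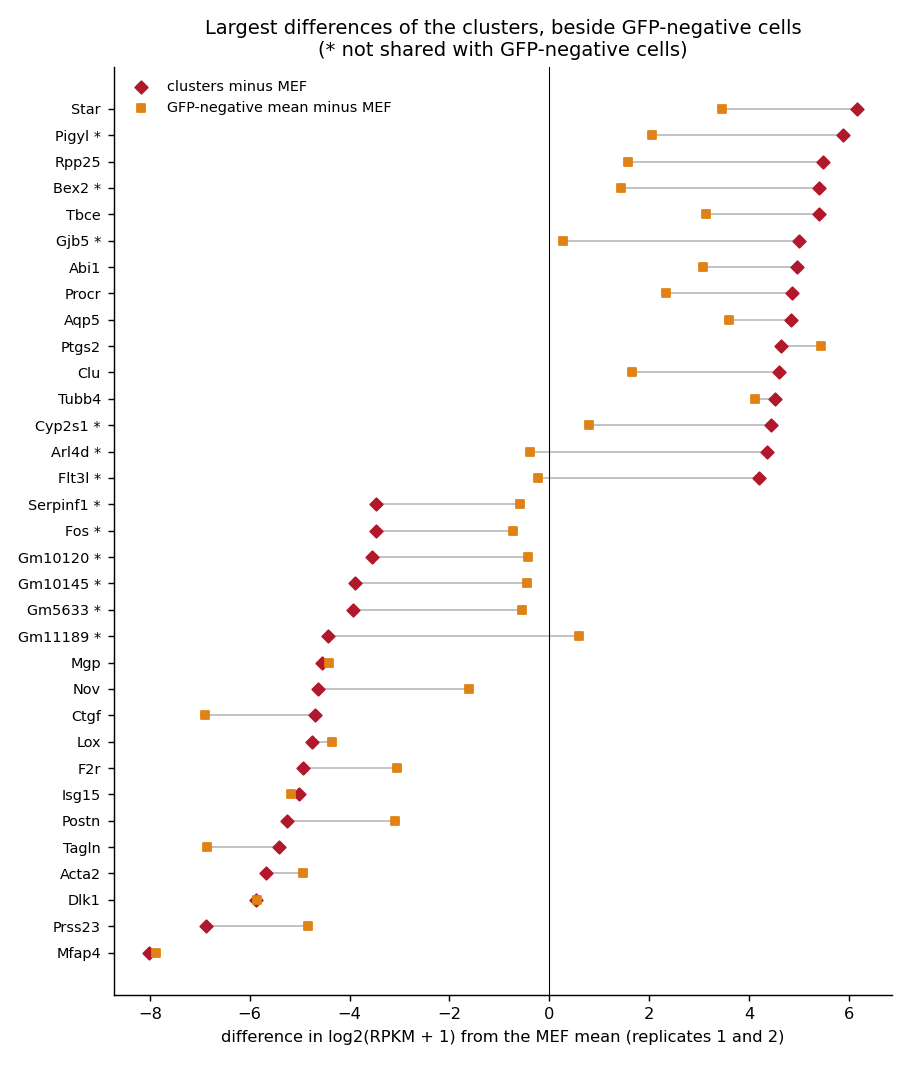
Difference from MEF replicates 1 and 2 in log2(RPKM + 1) on the horizontal axis for the genes with the largest differences in each direction, one gene per line, with diamonds for the clusters and squares for the mean of the 2 GFP-negative libraries, and an asterisk where the difference was not shared. Squares lie near 0 for Gjb5, Arl4d and Flt3l, next to the diamonds for Mfap4, Dlk1 and Lox, and farther from 0 than the diamonds for Ptgs2, Tagln and Ctgf.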

How the data were processed

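Reads were aligned with TopHat 1.3.0 to mm9, per the submitters' processing notes, and the authors deposited 1 table of RPKM per gene for the whole series, in the unit the file headers give. The counting tool, its annotation, its use of strand and any filter were not given in the sources used here. Of 15184 lines of the table, 8 that share 1 symbol were left out. No value was rescaled for the main comparison.

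Differences were taken on log2(RPKM + 1), as the clusters value minus the mean of the 2 MEF values, with Python 3.11.15, pandas 2.3.3, numpy 2.4.6 and scipy 1.17.1, and figures with matplotlib 3.10.9. RPKM are not counts, and with 1 clusters library no test was made. A pseudocount of 1 understates the differences of low genes. The value of 1 read was read from the steps of low values and the spans of 13671 genes (90.1%) in GENCODE vM21 (GRCm38), used for spans and overlaps only. Between 78.4% and 82.7% of low values came out whole within 0.05 of a step, and the depths, read counts and Poisson intervals in the text rest on these steps and cover counting error only. The contrast and the search for steps were tested on simulated data.

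The genes named are the 12 called genes with the largest difference in each direction at 10 RPKM or more, up to 4 called members with the largest difference on each of 29 lists (486 measured genes), the 6 largest differences in each direction not shared with GFP-negative cells, and 13 genes always shown, from Star to Thy1. List members named beyond this rule were chosen after their values were seen. The members and lists were chosen with earlier results of these data known, so the counts are descriptions. Alternatives covered the pseudocount, the filter, the scaling, each MEF replicate, a Poisson interval, the rule for shared calls and, added after seeing the data, reads per 1000000 mapped reads (RPM) and the removal of predicted genes. Promoter sequences are RefSeq's (GRCm38.p6). One gene that the naming rule selects is not reported here.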

Additional observations from a re-analysis of the deposited data

Results flagged for a closer look

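Among the named, listed and hypoxia genes, 5 were called higher in the clusters while both GFP-negative libraries lay below both MEF libraries by 1 or more on average. The difference between the groups was not tested, since there is 1 library of clusters. Dnajb1, a cochaperone of Hsp70, was at 42.3 RPKM in the clusters, 4.51 and 6.08 in GFP-negative cells, and 14.0 and 17.6 in MEF (log2 difference 1.37 for the clusters and −1.42 for GFP-negative cells). Klf2 differed by 1.13 in the clusters and by −3.29 in GFP-negative cells, and its call was lost without MEF replicate 1 (0.984) and with replicate 3 added (0.81). Irf1, an interferon-induced factor, was at 9.92 RPKM in the clusters, 0.0864 and 0.637 in GFP-negative cells, and 1.62 and 2.65 in MEF (1.82 and −1.21). Psmb8, a subunit of the immunoproteasome, was at 11.5 RPKM in the clusters, 0.249 and 1.60 in GFP-negative cells, and 6.44 and 4.16 in MEF (1.01 and −1.78), and its call was lost without MEF replicate 2 (0.751). Adm, the secreted peptide adrenomedullin, was at 69.8 RPKM in the clusters, 1.42 and 14.8 in GFP-negative cells, and 25.8 and 31.6 in MEF (1.26 and −2.25).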

How the results depend on the processing

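No paired analysis was possible because the clusters have 1 library and no test was run. Against 1546 genes called, 3103 were called with a minimum of 1 RPKM or no filter, 828 with 10 RPKM and 4490 by RPM. The genes called higher (803) became 1318, 437 and 1928 under those settings and 1322 under median-of-ratios scaling, and those called lower (743) became 1785, 391, 2562 and 429. Shared calls (535) became 937, 308 and 1534. Genes apart between MEF replicates 1 and 2 (125) became 326 at 1 RPKM, 360 with no filter, 52 at 10 RPKM and 519 by RPM. Without either MEF replicate, 1542 to 1566 genes were called, 792 to 802 higher and 740 to 774 lower, with 544 to 619 shared. With MEF replicate 3 added 755 were called higher and 891 lower, so that higher calls made up 45.9%. Of the 1546 calls, 1361 were kept with replicate 3 added and 1232 under median-of-ratios scaling. No called gene was called the other way under any of these alternatives, and 70 of 100 called named genes kept the call under every one that included them, the others being lost mostly to the 10 RPKM minimum, which 22 did not reach. Depth, gene span and 1 library of clusters limit the comparison.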

Other observations

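Genes known to be induced in hypoxia were looked at after the values were seen, so their count is a description. Of 17 measured, 8 were called higher, where 5.29% of all genes were, and 6 of these 8 reached 5 RPKM in the clusters but not in the MEF mean. Stc1, a secreted calcium regulator, was at 33.1 RPKM in the clusters, 56.5 and 58.8 in GFP-negative cells, and 0.470 and 0.959 in MEF (log2 difference 4.33). Egln3, an oxygen-sensing prolyl hydroxylase, was at 21.6 RPKM in the clusters, 2.64 and 1.74 in GFP-negative cells, and 0.149 and 0.213 in MEF (4.26). Car9, a membrane carbonic anhydrase, was high in the clusters alone, at 11.1 RPKM, against 0.187 and 0 in GFP-negative cells and 0.0249 and 0.0416 in MEF (3.55). Vegfa, the vessel growth factor that binds Kdr, was at 13.8 RPKM in the clusters, 3.02 and 11.5 in GFP-negative cells, and 2.21 and 3.15 in MEF (2.02). Ankrd37, also induced in hypoxia, was at 0 in the clusters, 0.975 and 10.4 RPKM in GFP-negative cells, and 0 and 0.0190 RPKM in MEF. The oxygen level of the cultures was not tested.

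Long genes under 5 RPKM came into view when reads were not divided by span (RPM, reads per 1000000), a setting also chosen after the values were seen. Fbn1, the microfibril protein fibrillin, had 15.6 RPM in the clusters, 274 and 243 in GFP-negative cells, and 1011 and 1061 in MEF. Nav3, a protein of growing microtubule ends, had 562 RPM in the clusters, 136 and 322 in GFP-negative cells, and 4.53 and 13.2 in MEF. Adamts19, a secreted protease, had 90.3 RPM in the clusters, 0.181 and 0.873 in GFP-negative cells, and 0 and 0.169 in MEF.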
